A study of Mus musculus with 6 samples.

Results

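Genes of the calcium signalling system that starts egg activation were followed in ribosome footprints of mouse oocytes. The 10 members were Itpr1, Stim1, Stim2, Orai1, Trpm7, Cacna1h, Atp2a2, Atp2b1, Camk2g and Ppp3ca, out of 22416 genes in the deposited table. They were chosen by their known function, but with earlier results of these data known. Footprints are the stretches of mRNA that a ribosome shields from nuclease. Their level depends both on how much of an mRNA is present and on how many ribosomes sit on its coding sequence. The low-input method used, Ribo-lite, took 500 oocytes per library. The 6 libraries fell into 3 groups of 2: WT_FGO (fully grown oocytes with an intact germinal vesicle), WT_MII (oocytes matured to metaphase II, the stage at which the egg waits for sperm) and Treat_MII (metaphase II oocytes matured under treatment). All came from wild type females aged 4 weeks that had received 5 IU of the gonadotropin PMSG and were killed 44 h later. The labels name the third group only as treated. In the methods the agent is BYBX, a ligand that stabilizes RNA G-quadruplexes (rG4s, stacked folds of G-rich RNA), and the control oocytes were given the solvent DMSO. The paper reports that fewer oocytes released a polar body under BYBX, and that treated oocytes reaching metaphase II had abnormal spindles. The part of this in the differences below was not tested. The labels do not say from how many mice the oocytes of a library were pooled, so the p-values below measure the spread between libraries, which may be technical.

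Sperm entry sets off repeated rises of calcium in the egg. Calcium leaves the endoplasmic reticulum (ER) through the IP3 receptor, is pumped back into the ER or out of the cell, and must be replaced from outside through channels of the plasma membrane. The rises switch on a calmodulin-dependent kinase, which marks the brake on the cell cycle for destruction and so releases the egg from metaphase II. The machinery has to be in place by the end of maturation, and in the absence of transcription it is made or kept from stored mRNA. Which of its genes carried ribosomes before and after maturation, and whether the rG4 ligand changed this, were the questions put to the data.

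The coverage behind each value was small. The FPKM (fragments scaled to the kilobases of coding sequence and to the library's reads) could be turned back into whole reads for all 10 members. The library constants were 94309 and 107251 reads in WT_FGO, 164972 and 230907 in WT_MII, and 331304 and 275604 in Treat_MII, so depth rose together with the order of the groups. The members held between 4 and 247 reads each over the 6 libraries together, with a median of 35, and only Itpr1, Atp2b1 and Camk2g reached 60. All 10 passed the filter of a mean of at least 1 FPKM. Oocyte identity was clear in every library: 9 of 9 oocyte markers had reads in each, with a summed level of 58744 and 39080 FPKM in fully grown, 9494 and 10203 FPKM in control metaphase II and 16296 and 16602 FPKM in treated metaphase II libraries. Markers of granulosa or cumulus cells, the somatic cells that surround the oocyte, summed to 862 and 1703, 2238 and 433, and 331 and 355 FPKM in the same order of groups. Between 5 and 10 of these 12 markers had reads in a library. The FSH receptor gene Fshr was listed at 0 in all libraries other than WT_FGO replicate 2, and Has2 was listed at 0 in all WT libraries. Hsd17b1, Amh and Cyp19a1, in contrast, had reads in every library. Hsd17b1 was at 730 and 488, 1956 and 256, and 202 and 204 FPKM in the same order. The 2 WT_FGO libraries differed in several of these markers. Inha had 3 reads in replicate 1 and 88 in replicate 2 (29.0 and 747 FPKM), and Amh had 9 and 35. Foxl2, Inhba and Inhbb had 0 reads in replicate 1 and 4, 19 and 8 in replicate 2. Hsd17b1, Cyp19a1 and Kitl were lower in replicate 2. The part of somatic cells in the WT_FGO levels of the members was not tested. In such pooled material, fewer cells of a type and fewer footprints per cell cannot be told apart.

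Because the treatment was directed at rG4s, the transcripts of the members were searched for the motif of 4 runs of at least 3 G joined by loops of 1 to 7 bases, on the sense strand of the longest coding transcript (GRCm38, GENCODE annotation). The motif was present in 3 of the 10 members, against 19.8% of 14868 tested genes with such a transcript. By region it was found in 7.07% of those 5′-UTRs, 4.53% of the coding sequences and 10.5% of the 3′-UTRs. The 3 sites that matched this pattern are given here 5′ to 3′ with the G runs in capitals. Whether the ligand acts at them was not tested. The first lies in the 3′-UTR of Stim1 (last exon, chr7:102437166-102437190, plus strand), the second in the 3′-UTR of Orai1 (last exon, chr5:123029911-123029933, plus strand), and the third in the 5′-UTR of Cacna1h (first exon, chr17:25433573-25433592, minus strand), starting 141 bases ahead of the start codon.
Stim1: GGGcctGGGttGGGtgcagctGGGG
Orai1: GGGGGGtGGGGcGGGGaatGGGG
Cacna1h: GGGtGGGccGGGGGcgcGGG
A match is a property of the sequence and not a measured fold. The Camk2g transcript that was searched carries only 1 base of 5′-UTR, so this search could say nothing of its leader. Other annotated transcripts of Camk2g were not searched. With loops of up to 12 bases, 5 members and 34.1% of the genes held a match.

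Across the 10 members, the largest values belonged to Camk2g and Orai1 in the fully grown oocyte, and these genes stood far lower at metaphase II. The members summed to 260 and 239 FPKM in fully grown oocytes, 101 and 98.4 FPKM in control and 101 and 84.3 FPKM in treated metaphase II oocytes. Without Camk2g and Orai1, a pair set aside after their values had been seen, the other 8 summed to 88.3 and 78.1, 85.5 and 66.2, and 67.7 and 74.8 FPKM. The pair thus made up 66.0% and 67.4% of the members' summed level in WT_FGO, 15.2% and 32.7% in WT_MII, and 33.2% and 11.3% in Treat_MII. The first sums were separated between WT_FGO and both metaphase II groups, whereas the sums over the other 8 overlapped between WT_FGO and WT_MII, and those of Treat_MII lay just below both WT_FGO sums.

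**Figure D1:**
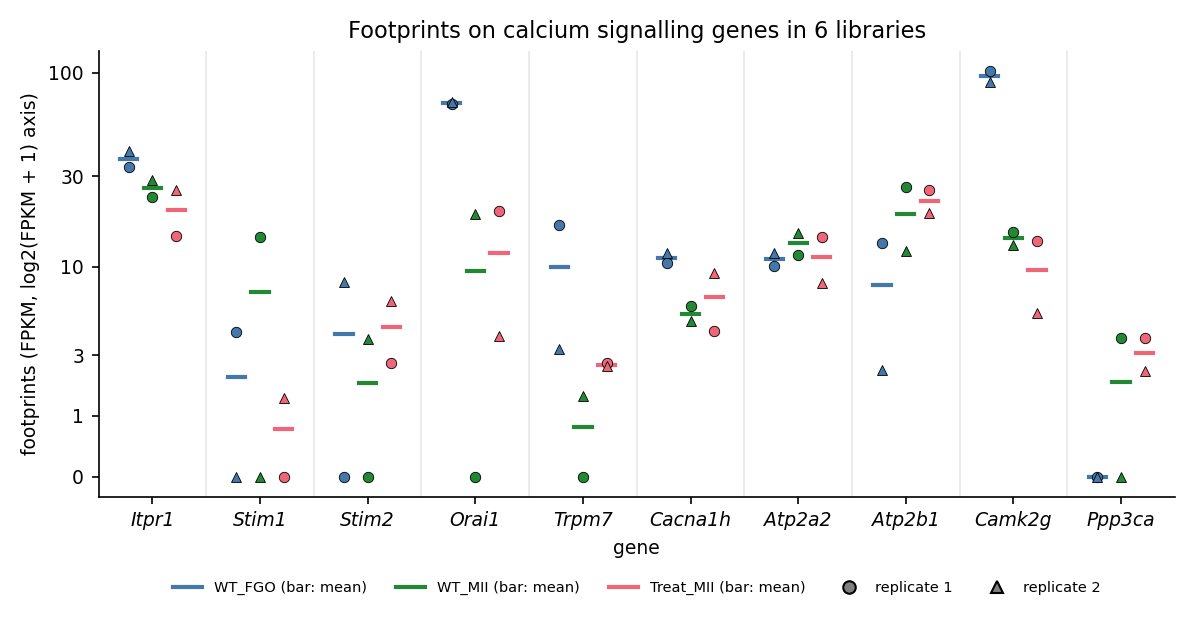
Footprint levels of the 10 calcium signalling genes in the 6 libraries, in FPKM on a log2(FPKM + 1) axis. Points are single libraries (circle, replicate 1; triangle, replicate 2), bars are group means and colours are groups; Camk2g lies at 101.9 and 89.6 FPKM in WT_FGO and at or under 15.3 FPKM in the other 4 libraries.

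The order of the levels, which FPKM allows because it is scaled to coding length, changed between the stages. In WT_FGO Camk2g came first (mean 95.8 FPKM), followed by Orai1 (70.7 FPKM) and Itpr1 (36.8 FPKM), and the libraries of each of these 3 genes lay clear of those of the next. Cacna1h, Atp2a2, Trpm7, Atp2b1, Stim2, Stim1 and Ppp3ca came after, each overlapping with the next. In WT_MII the order was Itpr1 (26.0 FPKM), Atp2b1 (19.2 FPKM), Camk2g (14.2 FPKM), Atp2a2, Orai1, Stim1, Cacna1h, Ppp3ca, Stim2 and Trpm7, and the only neighbours without overlap were Cacna1h and Ppp3ca. In Treat_MII Atp2b1 (22.3 FPKM) and Itpr1 (20.0 FPKM) led, then Orai1, Atp2a2, Camk2g, Cacna1h, Stim2, Ppp3ca, Trpm7 and Stim1, with a gap only between Trpm7 and Stim1. Among all genes of the table, Camk2g went from percentile 94.5 of the group means in WT_FGO to 79.9 in WT_MII and 75.7 in Treat_MII, while Itpr1 stayed at 86.6, 86.5 and 84.4.

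Maturation was examined first, as WT_MII minus WT_FGO. None of the 10 members passed limma's test at an adjusted p under 0.05, where 6.76% of the 15127 tested genes did (3.67% higher and 3.09% lower). At an unadjusted p under 0.05 there were 2, Camk2g and Orai1, both with lower means in WT_MII, where 3443 of the 15127 genes were under that limit. With precision weights built from the recovered reads, which give well-covered values more influence, Camk2g, Orai1 and Trpm7 were called lower, and none higher, where that fit called 16.4% of the genes (10.8% lower and 5.52% higher). Both WT_MII libraries lay below both WT_FGO libraries for 5 of the 10 (Itpr1, Orai1, Trpm7, Cacna1h and Camk2g) and above them for 0, whereas over all tested genes 25.8% lay below and 15.3% above. Among the 60 other tested calcium genes described below, 40.0% lay below and 11.7% above, so the share below was not particular to the members. The median change of the members was -0.48 on the log2 scale, close to the -0.44 of all tested genes.

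Camk2g encodes the gamma form of the calcium and calmodulin-dependent kinase II, the form that mouse eggs need for activation (GRCm38 chromosome 14, 20734875 to 20794088, minus strand). Its level in the fully grown libraries was 101.9 and 89.6 FPKM. It was 15.3 and 13.1 FPKM in the control metaphase II libraries and 13.7 and 5.51 FPKM in the treated ones. Behind these stood 19 and 19, 5 and 6, and 9 and 3 reads. Both fully grown libraries were thus high and alike, and all 4 metaphase II libraries were low, with no overlap. The mean in WT_FGO was 95.8 ± 8.7 FPKM (SD, n = 2), 6.73-fold that of WT_MII (14.2 ± 1.55 FPKM, SD, n = 2). The change was -2.67 ± 0.63 (SE) on the log2(FPKM + 1) scale with a 95% interval of -4.21 to -1.13, and its adjusted p of 0.0643 did not pass. Counted in reads pooled over libraries, 38 against 11, the rate was 6.79 times higher in WT_FGO, with a 95% interval of 3.40 to 14.7 that covers counting error only. Precision weights gave -2.67 ± 0.71 with an adjusted p of 0.00239, and a minimum of 5 FPKM gave 0.0430 with the same change. With each library centred on its median log2 ratio the change was -2.20. The summed level of the 9 oocyte markers was also highest in WT_FGO, as given above, and the part of this in the levels of Camk2g and Orai1 was not tested.

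Ppp3ca, the catalytic alpha subunit of the calcium-dependent phosphatase calcineurin, stood at the other end of the effectors. It was listed at 0 in both WT_FGO libraries, at 3.88 and 0 FPKM in WT_MII, and at 3.86 and 2.32 FPKM in Treat_MII. These values rest on 0, 0, 1, 0, 2 and 1 reads, and a single read was worth 6.78 and 5.97 FPKM in WT_FGO. All groups were at or under the floor of 3 reads, so no fold is given and no difference could be seen at this depth.

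Itpr1, the IP3 receptor through which egg calcium is released (chromosome 6, 108213096 to 108551109, plus strand), was the best covered member. It had 26 and 36 reads in WT_FGO, 32 and 55 in WT_MII, and 40 and 58 in Treat_MII. The level was 33.2 and 40.5, 23.4 and 28.7, and 14.6 and 25.4 FPKM. Both WT_FGO libraries were above the other 4, and the 2 metaphase II groups overlapped. From WT_FGO to WT_MII the change was -0.49 ± 0.57 (SE), with a 95% interval of -1.86 to 0.89 and an adjusted p of 0.628, and its size was close to the median change of all genes. Quantile normalization moved it to 0.0132. Genes on the other strand cover 3.48% of its coding bases (2.64% for Atp2a2 and 0 for the other 8), and without a stated strand setting their reads cannot be told apart. The genes whose log2(FPKM + 1) followed that of Itpr1 most closely over the 6 libraries, out of 2705 with at least 60 reads, were Shroom4 (Pearson's r = 0.984), Usp5 (0.976) and Tas1r2 (0.968), and 35 genes had an r over 0.9. These points share library and depth, and the correlations are a description.

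The store sensors Stim1 and Stim2, ER membrane proteins that report an emptied store to the channels above them, had too few reads for a comparison. In the order WT_FGO, WT_MII and Treat_MII, Stim1 was at 4.23 and 0, 14.5 and 0, and 0 and 1.45 FPKM, with 8 reads in all, of which 6 came from WT_MII replicate 1. Stim2 was at 0 and 8.24, 0 and 3.83, and 2.67 and 6.42 FPKM, with 10 reads. For both genes all 3 groups overlapped. The change from WT_FGO to WT_MII was 0.78 ± 1.66 (SE) for Stim1, with a 95% interval of -3.26 to 4.83. For Stim2 it was -0.47 ± 1.49 (SE), with a 95% interval of -4.10 to 3.16, and both intervals span changes of several fold either way.

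Orai1, the pore that STIM proteins open in the plasma membrane, is a short gene of 912 coding bases (chromosome 5, 123015074 to 123030456, plus strand). From 6 and 7 reads, it stood at 69.8 and 71.6 FPKM before maturation. Control metaphase II libraries had 0 and 19.0 FPKM (0 and 4 reads), and treated ones 19.9 and 3.98 FPKM (6 and 1 reads). The fully grown libraries were again the highest and did not overlap with the rest, but the 2 libraries within each metaphase II group differed widely. The change from WT_FGO to WT_MII was -4.00 ± 1.50 (SE), with a 95% interval of -7.67 to -0.33 and an adjusted p of 0.183. Its size rests on a library without a read: without WT_MII replicate 1 it was -1.84 and without WT_MII replicate 2 it was -6.16. In pooled reads, 13 against 4, the rate was 6.38 times higher in WT_FGO, with a 95% counting interval of 1.97 to 26.9, and precision weights gave -3.16 ± 1.05 with an adjusted p of 0.0224.

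Trpm7 and Cacna1h encode the other entry channels among the members: TRPM7, a divalent cation channel joined to a kinase, and the CaV3.2 T-type calcium channel. Trpm7 was at 16.7 and 3.27, 0 and 1.52, and 2.65 and 2.55 FPKM in the order of the groups, with 9 of its 22 reads in WT_FGO replicate 1. The change in maturation was -2.46 ± 1.16 (SE, adjusted p = 0.287), and -3.48 without WT_FGO replicate 2 but -1.43 without WT_FGO replicate 1. Cacna1h was at 10.5 and 11.9, 5.99 and 4.89, and 4.26 and 9.22 FPKM. Both WT_FGO libraries were above the other 4, but the change of -0.92 ± 0.80 (SE) had a 95% interval of -2.87 to 1.03, and its adjusted p of 0.509 did not pass. In pooled reads the Cacna1h rate was 2.10 times higher in WT_FGO, with a counting interval of 0.970 to 4.55 that includes 1.

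The 2 member pumps had positive changes in maturation, neither of which passed. Atp2b1 encodes PMCA1, a plasma membrane pump that moves calcium out of the cell (chromosome 10, 98914406 to 99026143, plus strand), and its level was 13.5 and 2.37, 26.2 and 12.1, and 25.3 and 19.4 FPKM in the order of the groups. The WT groups overlapped, with 5 and 1 reads against 17 and 11. The change of 1.43 ± 0.92 (SE) had a 95% interval of -0.82 to 3.69 and an adjusted p of 0.474, and ranged from 0.38 without WT_FGO replicate 2 to 2.49 without WT_FGO replicate 1. Of the 28-base words of its coding sequence, 7.13% also occur in other transcripts, chiefly the predicted gene Gm29808, so part of its reads could be assigned to either. Atp2a2, the ER pump SERCA2 that refills the store, was at 10.1 and 11.9, 11.6 and 15.2, and 14.4 and 8.08 FPKM. Its 3 groups overlapped. The change in maturation was 0.25 ± 0.70 (SE), with a 95% interval of -1.45 to 1.95, and 9.21% of its words are shared, chiefly with Gm30970.

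The treatment was examined as Treat_MII minus WT_MII. None of the 10 members passed, and none had an unadjusted p under 0.05. The background was the same, since limma called 0 of 15127 genes (0%), with 882 at an unadjusted p under 0.05. Precision weights called 165 genes (1.13%, with 0.447% higher and 0.688% lower) and no member. The members' changes ran from -1.33 (Stim1) to 1.25 (Stim2) with a median of 0.24, against 0 for all tested genes, and the lowest adjusted p was 0.966 (Camk2g and Trpm7). Both treated libraries lay above both WT_MII libraries for 1 member, Trpm7, and below them for 0, where 16.2% and 15.6% of all genes did.

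The limma intervals for treatment of the 3 members with at least 60 reads all included 0. The change of Itpr1 was -0.41 ± 0.57 (SE) with a 95% interval of -1.79 to 0.97. Its pooled reads, 98 against 87, gave a rate ratio of 0.735 with a counting interval of 0.545 to 0.992. That interval lies just under 1, but it covers counting error only and not the spread between libraries. Camk2g changed by -0.63 ± 0.63 (SE), with an interval of -2.18 to 0.91, from 12 against 11 reads. Atp2b1 changed by 0.29 ± 0.92 (SE), with an interval of -1.96 to 2.54. Over all 10 members the intervals reached from -5.38 (Stim1) to 4.88 (Stim2), so changes of several fold in either direction could not be told from 0 for the members with the widest intervals.

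The 3 genes with an rG4 motif had changes of different sign under treatment, none of which passed. Stim1 had a change of -1.33 ± 1.66 (SE), carried by the 6 reads of a single control library. Orai1 had 1.19 ± 1.50 (SE) and Cacna1h 0.19 ± 0.80 (SE). Leaving out a library turned the sign of each. Without WT_MII replicate 1 the change of Stim1 was 0.65 and that of Orai1 -0.97, and without Treat_MII replicate 2 that of Cacna1h was -0.29.

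**Figure D2:**
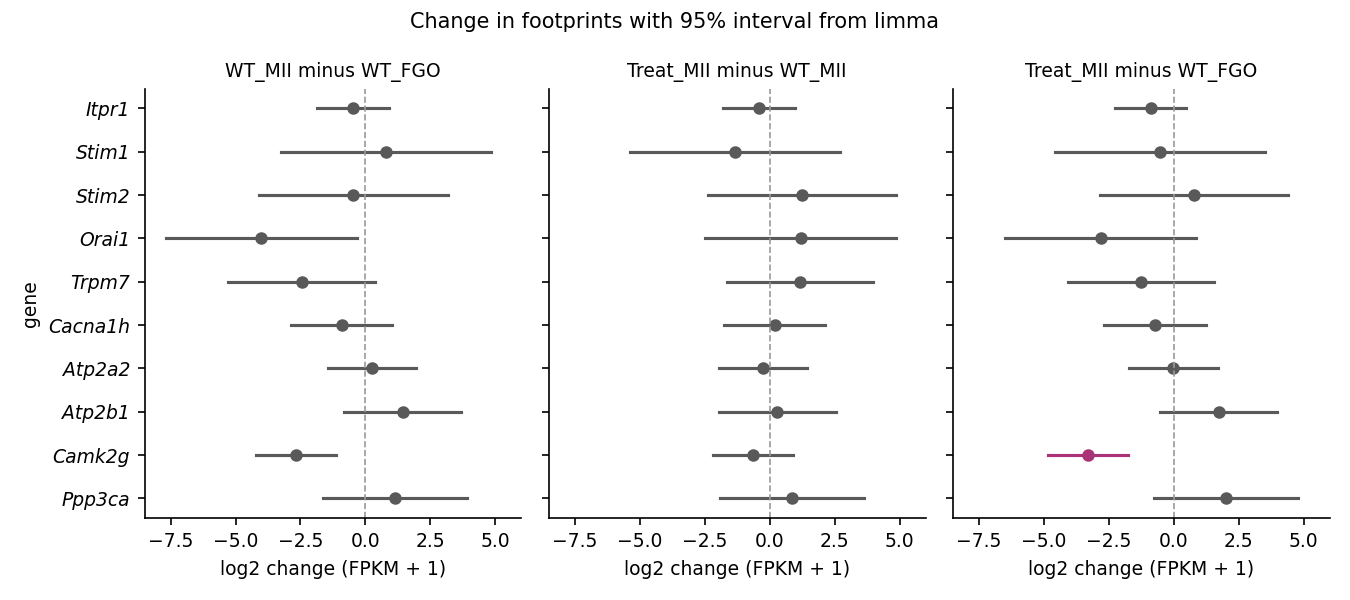
Change in footprints of each member on the log2(FPKM + 1) scale in the 3 comparisons, with the 95% interval from limma (points, estimates; lines, intervals; coloured where the adjusted p is under 0.05). The treatment intervals of all 10 genes include 0, and Camk2g in Treat_MII minus WT_FGO (-3.30) is the only coloured point.

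The treated metaphase II oocytes were also set against fully grown oocytes, a comparison that shares the WT_FGO libraries with the maturation comparison and the Treat_MII libraries with the treatment comparison. Here 1 of the 10 members passed, Camk2g, where 3.87% of all genes were called (2.86% higher and 1% lower). Camk2g was lower in Treat_MII by -3.30 ± 0.63 (SE) on the log2 scale, with a 95% interval of -4.84 to -1.76 and an adjusted p of 0.0493. The mean level was 9.95-fold higher in WT_FGO, and pooled reads of 38 against 12 gave a rate 9.53 times higher, with a counting interval of 4.88 to 20.0. The call was at the edge of the threshold. Of 16 alternatives it held under precision weights (adjusted p = 0.000116) and a minimum of 5 FPKM (0.0321), and without any single library the adjusted p lay between 0.0523 (without Treat_MII replicate 1) and 0.114 (without WT_FGO replicate 1). The change itself lay between -3.89 and -2.71 with each library left out.

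For the other members of this comparison, both Treat_MII libraries lay below both WT_FGO libraries for Itpr1, Orai1, Trpm7 and Cacna1h. With Camk2g these were 5 of 10, against 28.9% of all genes and 46.7% of the 60 other tested calcium genes. Both Treat_MII libraries lay above both WT_FGO libraries for Atp2b1 and Ppp3ca, against 16.6% of all genes and 11.7% of those 60. Ppp3ca had 3 reads against 0, and a single read in WT_FGO would have been worth more than both of its treated levels. Orai1 had a change of -2.81 ± 1.50 (SE, adjusted p = 0.378), which precision weights called lower (-2.69 ± 0.95, adjusted p = 0.0291). That fit called 2 members, Camk2g and Orai1, and 19.5% of all genes (13.6% lower and 5.84% higher). Atp2b1 had 1.73 ± 0.92 (SE, adjusted p = 0.377), and its pooled reads, 54 against 6, gave a rate 2.99 times higher in Treat_MII with a counting interval of 1.29 to 8.50. The median change of the members was -0.64, against -0.53 over all genes.

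The members were then set beside 63 other calcium genes in 6 roles, of which 60 were tested. In maturation 3 of these rose, 5 fell and 52 did not pass, which is 13.3% called against the 6.76% of all genes. None of the 10 tested genes of calcium release, of the 7 of calcium entry or of the 8 pumps and exchangers passed, so that in these roles the other genes had as few calls as the members.

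**Figure D3:**
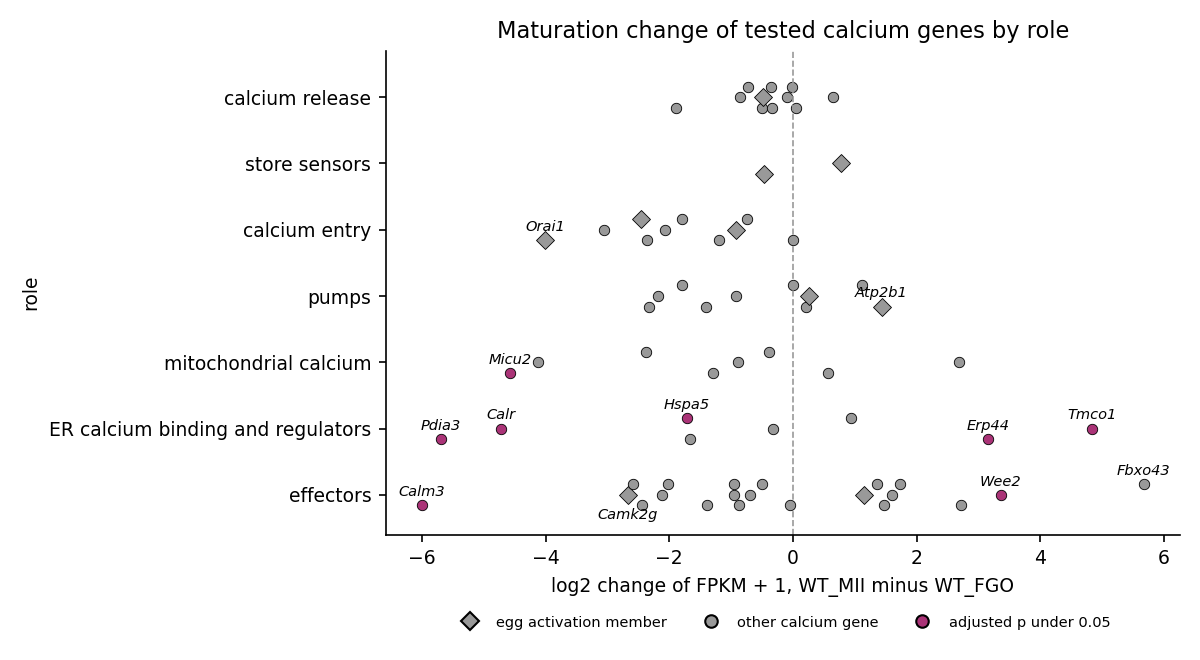
Maturation change of every tested calcium gene by role, as WT_MII minus WT_FGO on the log2(FPKM + 1) scale (diamonds, the 10 members; circles, the other calcium genes; coloured where the adjusted p is under 0.05). The 8 coloured genes lie among ER calcium binding genes, mitochondrial genes and effectors, and the points of Calm3 and Tmco1 rest on a group listed at 0.

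Of the 8 ER calcium binding genes and regulators, 2 rose and 3 fell. Hspa5, Calr and Pdia3 were well covered (1131, 557 and 385 reads), whereas the members had a median of 35. Calr, the main calcium buffer of the ER lumen, stood at 2668 and 1143 FPKM before maturation, at 68.0 and 62.5 FPKM after it, and at 77.4 and 75.6 FPKM in the treated oocytes. Both fully grown libraries were far above the rest, and Calr fell by 4.72 ± 0.45 (SE) on the log2 scale in maturation, with an adjusted p of 0.00462. Pdia3, an ER disulfide isomerase that works with calreticulin, stood at 1001 and 831, 24.0 and 11.4, and 112 and 98.2 FPKM in the same order. It fell by 5.69 ± 0.45 (SE), with an adjusted p of 0.00281, and its treated libraries lay between the WT groups without overlap. This placement was not particular to Pdia3, since Calr, Hspa5, Micu2 and the member Trpm7 (22 reads in all) had it too, among others. Its share over all tested genes was not counted. Hspa5, the ER chaperone BiP, fell by 1.72 ± 0.26 (SE, adjusted p = 0.0196), from 1122 and 839 FPKM to 311 and 278 FPKM. Erp44, an ER thiol protein known to bind the IP3 receptor, rose by 3.16 ± 0.52 (SE, adjusted p = 0.0241), from 17.4 and 38.3 FPKM to 309 and 185 FPKM, which is 8.86-fold on the means, and stood at 216 and 167 FPKM in Treat_MII. Tmco1, an ER membrane protein that lets calcium out of an overfull store, was listed at 0 before maturation and had 23.1 and 33.0 FPKM after it, and 26.8 and 46.1 FPKM with treatment (adjusted p = 0.0198 in maturation). Its WT_MII levels rest on 3 and 6 reads, and precision weights gave 2.32 ± 0.92 (SE), with an adjusted p of 0.0641 that did not pass. No fold is given for Tmco1, because 3 reads in either WT_FGO library would be worth more than both of its WT_MII levels. Canx and Saraf, the remaining genes of this role among the best covered, had changes in maturation of -1.67 (adjusted p = 0.0682) and 0.94 (adjusted p = 0.253).

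Among the effectors, where Camk2g belongs, 1 of 19 other genes rose and 1 fell in maturation. Wee2, a kinase that inhibits CDK1 and is a substrate of CaMKII in the egg, rose by 3.36 ± 0.62 (SE, adjusted p = 0.0331), from 19.1 and 61.6 FPKM to 262 and 505 FPKM, and had 560 and 527 FPKM in Treat_MII. Fbxo43, which encodes EMI2, the metaphase II brake that CaMKII marks for destruction, had 0 and 24.2 FPKM before maturation, 221 and 295 FPKM after it, and 201 and 240 FPKM with treatment. Both metaphase II groups were far above WT_FGO, but the change of 5.67 ± 1.40 (SE) had an adjusted p of 0.0706. The kinase and these targets thus had opposite signs of change in maturation, with Camk2g at -2.67. Calm3, a calmodulin gene, had 8 reads in WT_FGO and 0 in WT_MII, a level at least 2.64-fold lower (adjusted p = 0.0195), but 31.9% of its 28-base words occur elsewhere too. Rcan3, an inhibitor of calcineurin, changed by 1.35 ± 0.66 (SE, adjusted p = 0.306), with 458 FPKM in WT_MII replicate 1 and 113 FPKM in WT_MII replicate 2.

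**Figure D4:**
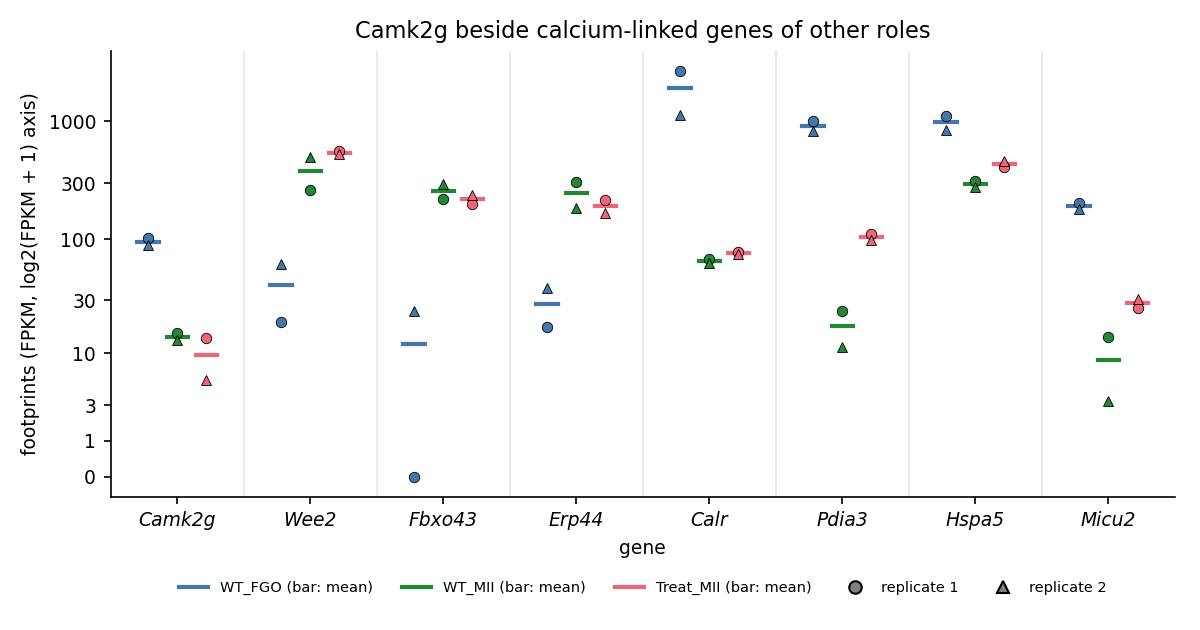
Footprint levels of Camk2g beside its targets Wee2 and Fbxo43 and beside ER and mitochondrial calcium genes, in FPKM on a log2(FPKM + 1) axis (circle, replicate 1; triangle, replicate 2; bars, group means). Camk2g, Calr, Pdia3, Hspa5 and Micu2 have both WT_FGO libraries above both WT_MII libraries, and Wee2, Fbxo43 and Erp44 have them below.

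In the mitochondrial role 1 of 8 genes passed. Micu2, a gatekeeper of the mitochondrial calcium uniporter, fell by 4.58 ± 0.70 (SE, adjusted p = 0.0196), from 205 and 180 FPKM to a mean of 8.69 ± 7.56 FPKM (SD, n = 2) from 3 and 1 reads, and was at 25.6 and 30.8 FPKM in Treat_MII. Mcu, the pore of the uniporter, its partner Mcub and the mitochondrial exchanger Slc8b1 had changes of 0.57, -1.29 and -0.88 (adjusted p of 0.493, 0.136 and 0.329).

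Nearer to the members in function, the best covered of the other IP3 and ryanodine receptors were lower than Itpr1 in WT_MII. Itpr3 had a mean of 11.2 ± 4.1 FPKM (SD, n = 2) there, Ryr1 6.76 ± 2.30 FPKM and Ryr3 6.20 ± 0.495 FPKM, against 26.0 ± 3.77 FPKM for Itpr1, and no library of theirs reached those of Itpr1. Their changes in maturation were -0.34 (Itpr3), -0.36 (Ryr1) and -0.10 (Ryr3), against -0.85 for Itpr2 and 0.65 for Ryr2, and none of these passed. The T-type channel genes Cacna1g and Cacna1i, relatives of Cacna1h, changed by -1.79 and -1.20 with adjusted p of 0.452 and 0.496. Trpv3, an entry channel of the egg, had 6 reads over all libraries. Atp2c1, a calcium pump of the Golgi, was level at 57.9 and 76.3, 64.1 and 69.4, and 63.8 and 79.2 FPKM, above both Atp2a2 and Atp2b1 in every library. Slc8a1, the sodium and calcium exchanger of the plasma membrane, changed by -2.33 ± 0.80 (SE, adjusted p = 0.153), and Atp2b4, a further plasma membrane pump, by 1.12 ± 1.23 (SE, adjusted p = 0.599).

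Under treatment 0 of the 60 other calcium genes passed, and 4 had an unadjusted p under 0.05. Precision weights called 2 of them, among them Pdia3, which was higher (2.60, adjusted p = 0.0201). In the limma fit with equal weights the change of Pdia3 was 2.58 ± 0.45 (SE) with an adjusted p of 0.494. Against WT_FGO the treated libraries had 3 genes higher (Erp44, Tmco1 and Wee2) and 3 lower, among them Calr and Pdia3, where 3.87% of all genes passed.

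Leaving out a library changed several of these counts. In maturation the 8 calls among the other calcium genes became 6 without WT_FGO replicate 1, 11 without WT_FGO replicate 2, 3 and 4 without WT_MII replicates 1 and 2, and 0 without either Treat_MII library. The 6 calls in Treat_MII minus WT_FGO became 5 and 9, 1 and 1, and 1 and 0 without the libraries of WT_FGO, WT_MII and Treat_MII in turn, and the members had 0 calls in each of these fits.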

How the data were processed

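The deposited FPKM were made by the authors per library from reads on the mouse mm10 genome, and the labels list cutadapt 1.14, Bowtie2 2.2.2 and STAR 2.5.3a. The program that counted reads, its strand setting and any use of molecular identifiers are not given in the sources used here, and no spike-in is stated, so values are relative to the library. RNA-seq of the study was not analysed here, so a change in mRNA amount and a change in ribosomes per mRNA cannot be told apart. The paper reports that maternal mRNA is degraded in the GV to MII transition. Of 22442 entries, 26 with a repeated name were left out. FPKM times the union coding length (GENCODE vM21) gave whole reads, within 0.02, for 96.3% of genes. The 15127 genes averaging at least 1 FPKM were fitted as log2(FPKM + 1) with limma 3.58.1 (lmFit, eBayes with trend) in R 4.3.3, all 6 libraries in one fit without covariate, Benjamini-Hochberg over all genes. This scale understates changes of low genes. Precision weights were voom weights on the recovered reads. Intervals of read ratios are exact 95% Poisson intervals and, like the floor of 3 reads, cover counting error only, since PCR copies are not independent. Percentiles are over all genes. Scripts were tested on simulated data. The alternatives were another pseudocount, filter, scaling, weighting, group choice or trend, a replicate block and leaving out each library. The members and lists were chosen with earlier results of these data known. Genes named are the members, other listed calcium genes called in any comparison, otherwise the 3 with most reads in each role, the 3 most like the best covered member, and genes singled out after their values were seen (Itpr2, Ryr2, Fshr, Has2, Hsd17b1, Amh, Cyp19a1, Inha, Inhba, Inhbb, Foxl2, Kitl). Some genes that the naming rule covers are not reported here.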

Additional observations from a re-analysis of the deposited data

How the results depend on the processing

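Coverage was low and each group had 2 libraries: the tested genes had a median of 13 reads over 6 libraries, and most of the members had fewer than 60. The count of members called in maturation (0) was 1 with a minimum of 5 FPKM and 3 with precision weights, and in treatment it was 0 under all alternatives run. The single call in Treat_MII minus WT_FGO became 2 with precision weights and 0 with a pseudocount of 0.1, no filter, median centring, quantile normalization, a common total, the replicate block, only the compared groups or no trend, and 0 to 0 with each library left out. The cause was not tested.

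Directions turned for several members, the best covered Itpr1 among them. Quantile normalization gave 0.0132 for Itpr1 in maturation and 0.70 for Atp2a2 in Treat_MII minus WT_FGO, and median centring 0.33 for the latter. Precision weights gave -0.0605 for Stim1 in maturation and -0.0179 for Stim2 in Treat_MII minus WT_FGO. With each library left out, values in maturation ran from -1.19 to 2.76 for Stim1, -2.07 to 1.136 for Stim2 and 0 to 2.29 for Ppp3ca. In treatment they ran from -3.31 to 0.65 for Stim1, -0.97 to 3.35 for Orai1, -0.29 to 0.67 for Cacna1h, -0.65 to 0.11 for Atp2a2, -0.23 to 0.82 for Atp2b1 and -0.28 to 2.01 for Ppp3ca. In Treat_MII minus WT_FGO they ran from -1.74 to 0.65 for Stim1, -0.83 to 2.38 for Stim2 and -0.40 to 0.36 for Atp2a2.

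Replicate numbers were not taken as pairs, since the labels do not say that a number marks a shared batch or animal. Deviations of same-numbered libraries correlated at 0.0342, 0.0189 and 0.0176 over 2706 genes. Counting noise at this depth pulls such a correlation toward 0, so it cannot decide whether libraries were paired. With the replicate block, 788, 0 and 436 genes were called in maturation, treatment and Treat_MII minus WT_FGO, against 1023, 0 and 585 without it, and 0, 0 and 0 members.

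Over all genes the maturation count of 1023 was 536 with no filter, 0 with only the compared groups, 328 without the trend, 2378 with precision weights, and 0 to 1843 with each library left out. Treatment gave 27 with no filter, 165 with precision weights and 0 to 418 with each library left out. Treat_MII minus WT_FGO (585) gave 32, 59 and 2834 with only the compared groups, without the trend and with precision weights, and 140 to 1604 with each library left out. Centring moved the higher and lower calls in maturation from 555 and 468 to 758 and 305, and in Treat_MII minus WT_FGO from 433 and 152 to 594 and 65. Precision weights moved the median change of all genes from -0.44 to -0.92 in maturation. Among the other calcium genes, the 8 maturation calls were 4 with no filter or no trend, 0 with only the compared groups and 13 with precision weights. The 6 in Treat_MII minus WT_FGO were 3, 0, 0 and 12 in that order, and 4 with a common total. The motif count of 3 was 5 with loops of up to 12 bases.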
